A study of Mus musculus with 15 samples.

Results

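Genes that copy DNA and genes that carry a cell through mitosis were examined for 2 histone marks and for the histone variant H3.3 in mouse macrophages. The set held 41 of the 21911 protein-coding genes of GENCODE M21 (mouse genome mm10). Members were taken by name for what their products do. Of these, 24 act in DNA replication (Mcm2 to Mcm7, Mcm10, Cdc6, Cdt1, Orc1, Orc6, Gins1, Gins2, Cdc45, Pcna, Rfc3, Rfc4, Rfc5, Pole, Pold1, Rrm1, Rrm2, Tyms and Tk1). A further 3 act at entry into S phase (Ccne1, Ccne2 and E2f1), and 14 act in mitosis (Ccna2, Ccnb1, Ccnb2, Cdk1, Cdc20, Plk1, Aurka, Aurkb, Bub1, Bub1b, Mki67, Top2a, Kif11 and Birc5). All 41 names were found in the annotation.

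The study asked how loss of H3.3, which is encoded by H3f3a and H3f3b, alters bone marrow-derived macrophages (BMDMs) and their chromatin. CUT&RUN, in which a nuclease tethered to an antibody cuts out the DNA around its target for sequencing, was performed for trimethylated lysine 36 of histone H3 (H3K36me3), acetylated lysine 27 of histone H3 (H3K27ac) and HA-tagged H3.3. Wild-type (WT) cells carried H3f3a fl/fl and H3f3b fl/fl alleles and no Cre, and conditional knockout (cKO) cells carried the same floxed alleles plus LysM cre/cre. This Cre sits at Lyz2 and acts in myeloid cells, so deletion takes place while the cells develop and depends on how completely Cre has acted. H3.3-HA cells came from knock-in mice in which H3f3b encodes the tagged protein. All mice were on a C57BL/6 background and 8 to 10 weeks old, and marrow was cultured for 6 to 8 days in medium conditioned by L929 cells, a source of CSF-1 (7 days for H3.3-HA). Each of the 5 groups (H3.3-HA, and each mark in WT and in cKO) had 2 libraries. The labels call the 2 libraries of each WT and cKO group biological replicates without naming an animal. The H3.3-HA libraries are told apart by a number in their source names.

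H3K36me3 is laid down over the bodies of transcribed genes by an enzyme that travels with elongating RNA polymerase II, and it usually builds up toward the end of the gene. H3K27ac marks active promoters and enhancers. H3.3 is put into chromatin throughout the cell cycle, whereas the other common H3 proteins are made and deposited in S phase. Replication genes are classic targets of E2F factors, which act from the end of G1. Mitosis genes are switched on later, through promoters that hold CCAAT boxes and cell cycle genes homology region (CHR) elements. Macrophage progenitors divide in CSF-1 and then leave the cell cycle as they mature.

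Promoter letters differed in frequency between replication and mitosis genes, and 5 promoters are printed here because the results turn on these genes. The 250 bases upstream of the start were taken from RefSeq (build GRCm38.p6), which matched 34 of the 41 members and 16521 protein-coding genes in all. Mcm4, Gins1, Gins2, Pole, Ccne2, Ccna2 and Aurkb had no entry. Capitals mark matches on either strand to E2F letters (TTTCCCGC, TTTGGCGC, TTTCGCGC or TTTGCCGC), to CHR letters (TTTGAA or TTCGAA) or to CCAAT. The pair of E2F matches in Mcm5, which begin 153 and 149 bases before the start, overlap on opposite strands, as do the first 2 of 3 in Mcm6. All 5 sequences run 5′ to 3′ in the direction of the gene, and none overlaps an annotated exon.
Mcm5 (chr8:75109259-75109508, plus strand): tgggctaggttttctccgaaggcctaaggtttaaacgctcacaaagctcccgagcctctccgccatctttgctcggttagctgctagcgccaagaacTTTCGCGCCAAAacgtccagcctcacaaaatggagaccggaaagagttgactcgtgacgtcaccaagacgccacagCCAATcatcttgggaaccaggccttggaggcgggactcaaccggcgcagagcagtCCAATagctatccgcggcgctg
Mcm6 (chr1:128359706-128359955, minus strand): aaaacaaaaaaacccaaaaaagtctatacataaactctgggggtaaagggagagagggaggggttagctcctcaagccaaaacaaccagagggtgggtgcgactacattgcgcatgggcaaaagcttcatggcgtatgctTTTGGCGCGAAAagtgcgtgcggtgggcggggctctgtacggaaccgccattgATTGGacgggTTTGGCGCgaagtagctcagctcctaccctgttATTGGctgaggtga
Mki67 (chr7:135716380-135716629, minus strand): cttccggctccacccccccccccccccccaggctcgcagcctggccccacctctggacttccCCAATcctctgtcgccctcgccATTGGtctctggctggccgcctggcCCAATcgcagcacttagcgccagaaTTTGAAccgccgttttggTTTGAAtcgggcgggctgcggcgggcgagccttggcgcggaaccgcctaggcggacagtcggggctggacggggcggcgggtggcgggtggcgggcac
Top2a (chr11:99024190-99024439, minus strand): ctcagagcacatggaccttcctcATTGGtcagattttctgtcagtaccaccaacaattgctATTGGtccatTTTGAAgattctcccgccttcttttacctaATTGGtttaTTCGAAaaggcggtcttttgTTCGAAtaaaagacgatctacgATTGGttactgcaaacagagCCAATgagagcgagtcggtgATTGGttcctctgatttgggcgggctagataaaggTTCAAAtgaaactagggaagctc
Kif11 (chr19:37376132-37376381, plus strand): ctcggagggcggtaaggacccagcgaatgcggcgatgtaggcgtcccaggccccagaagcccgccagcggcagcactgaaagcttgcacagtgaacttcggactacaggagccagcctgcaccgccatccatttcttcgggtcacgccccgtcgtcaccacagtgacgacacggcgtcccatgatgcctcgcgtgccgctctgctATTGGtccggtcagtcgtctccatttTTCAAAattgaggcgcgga

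E2F letters were present in 6 of 20 replication promoters (30.0%), 1 of 12 mitosis promoters (8.33%) and 2.43% of all promoters. CHR letters were present in 7 of 12 mitosis promoters (58.3%), 4 of 20 replication promoters (20.0%) and 15.6% of all. CCAAT was present in 11 of 12 mitosis promoters (91.7%), 13 of 20 replication promoters (65.0%) and 36.1% of all. CHR and CCAAT stood together in 7 of 12 mitosis promoters and in 5.90% of all. Among further genes of these pathways, E2F letters were in 16.7% of 36 replication and 7.14% of 42 mitosis promoters. CHR letters were in 8.33% and 28.6% of them, and CHR with CCAAT in 5.56% and 23.8%. E2F letters were also in 36.8% of 19 promoters of cell cycle control genes. Member promoters held a median of 18.5 CG pairs, against 10 over all promoters, and each E2F sequence contains a CG pair. Top2a held 4 CHR and 6 CCAAT matches and Mki67 held 2 and 3. These shares rest on RefSeq starts, which lay farthest from the GENCODE starts at Mcm7 (539 bp), E2f1 (466 bp) and Cdc6 (350 bp). The window overlapped an exon of a coding transcript, of the gene itself or of a neighbour, at 19 of the 34 members. The E2f1, Mcm7 and Cdc6 windows lay inside the GENCODE bodies of these genes. Mcm7 and Cdc6 are among the replication promoters with E2F letters. A match is a description of letters and not of a bound site.

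The files list enriched regions without heights, so a gene is described by how much of it lies inside regions. A stretch just over the calling threshold in some libraries and just under it in others would look different here with nearly equal signal. The lists were built on 5365319 to 29988098 tags. The cKO H3K36me3 replicate 1 stood apart, with 90.7 Mb inside regions and 19.3% of its tags there, against 163 to 170 Mb and 46.5% to 50.2% in the other H3K36me3 libraries. The H3K27ac lists covered 89.6 and 74.8 Mb in WT and 46.2 and 62.0 Mb in cKO. Each genotype was called against its own IgG control, so a difference between genotypes and a difference between controls cannot be told apart. With 2 libraries against 2, the smallest p of the two-sided exact permutation test is 0.333. A gene is therefore called higher or lower in cKO only in the sense that both cKO libraries lay above or below both WT libraries, and the share of all genes called in the same way is the background for each count. In bulk chromatin, fewer cells that carry a mark and less of the mark per cell cannot be told apart.

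H3K36me3 covered more of the body of 12 members in both cKO libraries than in both WT libraries. They were Mcm5, Cdc6, Orc6, Gins1, Rrm2 and Tyms of the replication genes, Ccne2 of the S-phase entry genes, and Ccnb1, Cdk1, Mki67, Top2a and Kif11 of the mitosis genes. Of all protein-coding genes, 4.13% were higher by this rule, and of the 11145 genes with an H3K36me3 region in at least 1 library, 8.12% were. In the opposite direction stood 3 members, Pcna, Rfc4 and Rfc5, against 19.5% of all genes and 38.4% of genes with a region. The median difference between cKO and WT means was 6.66 percentage points over the 41 members and -6.35 over genes with a region. No member lacked regions in all 4 libraries.

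The member counts depended on which cKO library was read. cKO replicate 2 alone lay above both WT libraries at 36 of 41 members, 20 of 24 replication genes, 2 of 3 S-phase entry genes and 14 of 14 mitosis genes, against 20.7% of all genes. cKO replicate 1, the sparse library, lay above both at 12 members, against 4.54% of all genes, and below both at 23, against 39.5%. cKO replicate 2 lay below both WT libraries at 3 members, against 19.6%. Thus 12 members were higher whether replicate 2 was used or not, 36 were higher without replicate 1, and 23 were lower without replicate 2. Without WT replicate 1 the number lower was 5, against 25.9% of all genes. With each library divided by its mean over all genes (20.3% and 21.2% in WT, 12.4% and 21.3% in cKO), 26 members were higher and 1 was lower, against 10.6% and 17.8% of all genes.

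**Figure D1:**
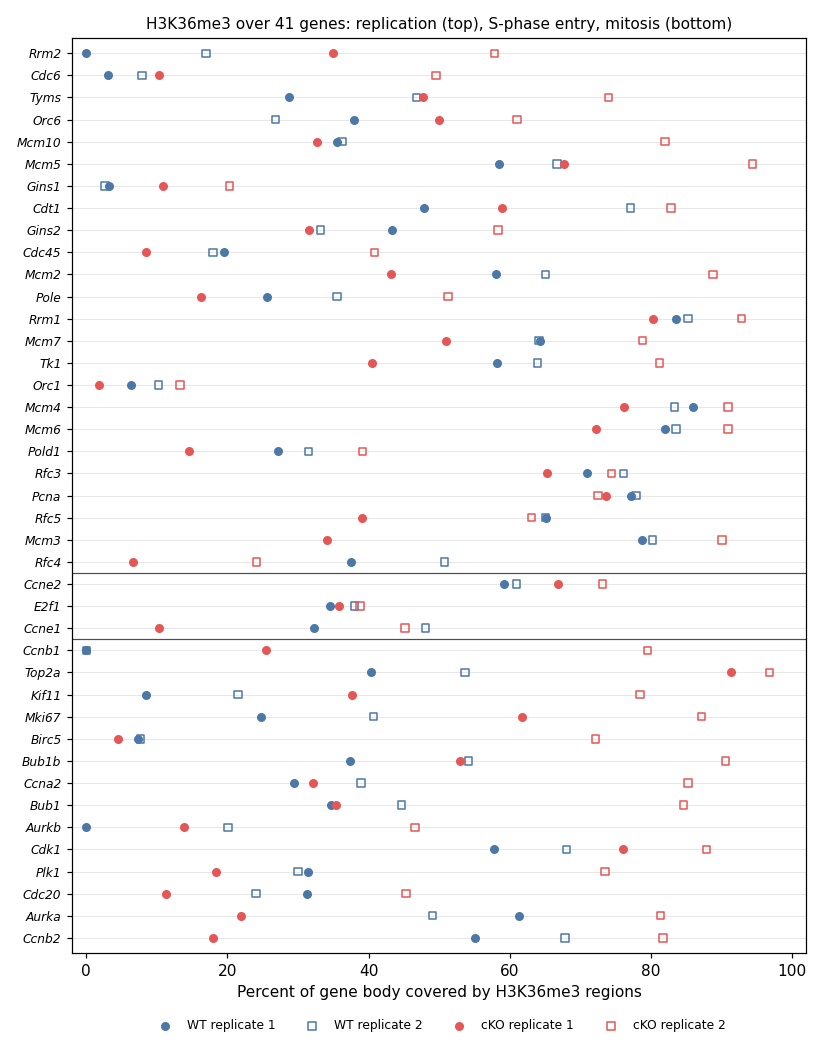
Percent of each gene body covered by H3K36me3 regions (horizontal axis) for the 41 genes, with WT libraries in blue and cKO libraries in red, replicate 1 as filled circles and replicate 2 as open squares. Genes are ordered within each class by the difference of the means. For Top2a the cKO points sit at 91.3% and 96.8%, right of the WT points at 40.3% and 53.6%, and for Rfc4 they sit left of them.

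The mitosis genes held the largest differences of the 41. Top2a (chr11:98992943-99024189, minus strand), whose topoisomerase untangles chromosomes, was covered over 40.3% and 53.6% of its body in WT and 91.3% and 96.8% in cKO (47.0 ± 9.45 against 94.1 ± 3.88, mean ± SD, n = 2). WT replicate 1 held 9 separate regions over Top2a, the widest 4969 bp, and WT replicate 2 held 7, the widest 9077 bp. cKO held 2 regions in replicate 1, the widest 26776 bp, and a single region of 32534 bp in replicate 2 (chr11:98990666-99023199). Mki67, which encodes the proliferation antigen Ki-67 that coats mitotic chromosomes, had coverages of 24.8% and 40.7% in WT and 61.7% and 87.2% in cKO. Kif11, the motor that pushes spindle poles apart, had 8.49% and 21.5% in WT and 37.7% and 78.4% in cKO. The groups did not overlap at any of these genes, and for Mki67 and Kif11 the cKO libraries differed from each other by more than the WT libraries did.

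Ccnb1 and Cdk1 encode the subunits of the kinase that starts mitosis. Ccnb1 (chr13:100778650-100786570, minus strand) had no H3K36me3 region in either WT library and was covered over 25.5% and 79.5% in cKO, the greatest difference of means among members (52.5 percentage points). Cdk1 was covered over 57.7% and 68.0% in WT and 76.0% and 87.9% in cKO. Ccnb2, a second B-type cyclin, behaved otherwise, with 55.1% and 67.9% in WT and 17.9% and 81.7% in cKO, so the cKO libraries lay on either side of WT. The same straddling was seen at Aurka, a spindle pole kinase (61.3% and 49.1% in WT, 21.9% and 81.3% in cKO). Ccna2, which encodes cyclin A, had 29.4% and 38.9% in WT and 32.1% and 85.3% in cKO, and Bub1, a checkpoint kinase at kinetochores, had 34.7% and 44.7% against 35.4% and 84.6%. For both genes cKO replicate 1 lay between the WT libraries. No mitosis gene was lower in both cKO libraries.

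Among the genes that load and start the replicative helicase, Mcm5, a subunit of its MCM ring, was covered over 58.4% and 66.7% in WT and 67.7% and 94.4% in cKO. Replicate 1 of cKO exceeded the higher WT library there by about 1 percentage point. Cdc6, which loads the ring onto origins, had 3.10% and 7.92% in WT and 10.3% and 49.6% in cKO. Orc6, of the origin recognition complex, had 37.9% and 26.8% in WT and 49.98% and 61.0% in cKO, with both cKO libraries well apart from WT. Gins1, part of the active helicase, had 3.25% and 2.65% in WT and 10.8% and 20.3% in cKO. Mcm2, Mcm3, Mcm4, Mcm6 and Mcm7 were already covered over most of their bodies in WT, and Mcm10 was not (35.6% and 36.2% in WT, 32.8% and 82.0% in cKO). Mcm4 had the highest WT coverage of all members at 85.9% and 83.3%, followed in cKO by 76.1% and 91.0%, and Mcm6 had 81.9% and 83.5% against 72.2% and 91.0%. Mcm3 had 78.7% and 80.2% in WT and 34.1% and 90.1% in cKO. Mcm2 had 58.0% and 65.1% in WT and 43.1% and 88.8% in cKO. At Mcm2, Mcm3, Mcm4 and Mcm6 alike, cKO replicate 1 lay below and replicate 2 above both WT libraries.

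The replication clamp and its loader supplied the members with less H3K36me3. Pcna (chr2:132249162-132253314, minus strand), the sliding clamp that holds polymerases on DNA, had 77.2% and 77.9% in WT and 73.7% and 72.5% in cKO, a difference of -4.43 percentage points with SDs of 0.511 and 0.851. Rfc4, a subunit of the clamp loader, had 37.5% and 50.7% in WT and 6.65% and 24.1% in cKO, the least difference among members (-28.7). Its relative Rfc5 had 65.2% and 65.1% in WT and 39.0% and 63.1% in cKO, so in replicate 2 it lay only about 2 percentage points below WT. The nucleotide supply genes went the other way or straddled. Rrm2, the regulatory subunit of ribonucleotide reductase, had 0% and 17.0% in WT and 35.0% and 57.8% in cKO. Tyms, thymidylate synthase, had 28.7% and 46.8% in WT and 47.7% and 74.0% in cKO. Rrm1, the large subunit of the reductase, was densely covered in every library (83.5% and 85.3% in WT, 80.4% and 92.9% in cKO). Of the cyclin E genes, which drive entry into S phase, Ccne2 had 59.2% and 61.0% in WT and 66.8% and 73.2% in cKO, and Ccne1 had 32.2% and 48.1% against 10.2% and 45.2%. The means of the cyclin E genes thus differed in opposite directions, and for Ccne1 the libraries overlapped.

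The position of H3K36me3 within the gene body differed between the classes. In WT the mitosis genes were covered over 4.95% and 9.24% of the first of 3 equal parts of the body, 35.1% and 43.5% of the middle part and 49.8% and 58.8% of the last part, on average over 14 genes. In cKO the first part was covered over 26.5% and 47.3%, above WT in both libraries. The middle part also lay above WT in both (46.2% and 88.5%), whereas the last part lay below WT in replicate 1 (34.5%) and above it in replicate 2 (98.0%). The 24 replication genes had 17.9% and 22.6% of the first part covered in WT and 18.1% and 39.2% in cKO, so that replicate 1 lay inside the WT range. Their last part had 65.3% and 68.1% in WT and 55.0% and 80.0% in cKO. In the sparse replicate 1, the mitosis genes thus had more coverage than WT near their starts and less near their ends. Coverage by position was not computed over all genes. Whether the same differences are found outside the members was therefore not tested.

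**Figure D2:**
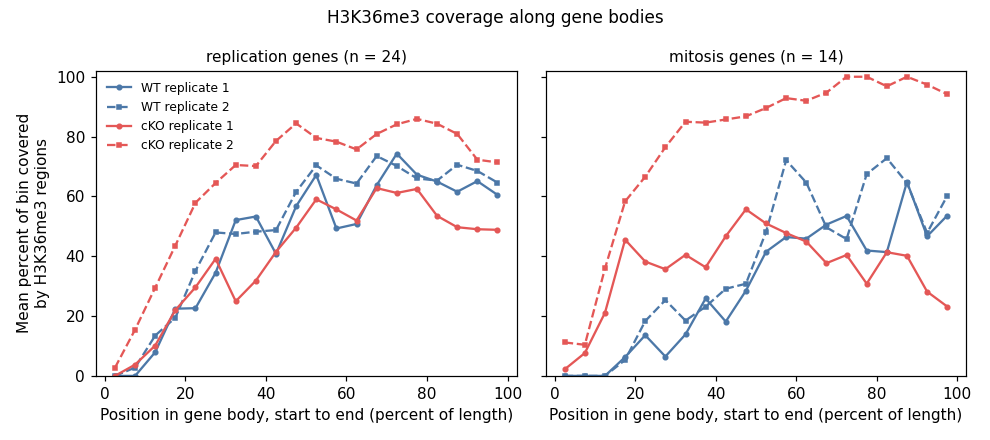
Mean percent of each twentieth of the gene body covered by H3K36me3 regions (vertical axis) against position from start to end (horizontal axis, percent of body length), for replication genes (left, n = 24) and mitosis genes (right, n = 14), 1 line per library. Both cKO lines (red) lie above both WT lines (blue) over the first of 3 equal parts of mitosis genes, where coverage averaged 26.5% and 47.3% against 4.95% and 9.24%.

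Set against each other by class, replication genes were covered more than mitosis genes in both WT libraries and in cKO replicate 1, and less in cKO replicate 2. Mean coverage was 45.8% and 50.2% over replication genes and 29.9% and 37.2% over mitosis genes in WT, a gap of 15.8 and 13.0 percentage points. In cKO the means were 40.3% and 65.5% over replication genes and 35.7% and 77.9% over mitosis genes, and the gap was 4.58 points in replicate 1 and -12.4 in replicate 2. Both cKO gaps lay below both WT gaps, and the mean gap differed by -18.3 points (-26.8 without cKO replicate 1, -9.83 without cKO replicate 2). Median body length was 15362 bp for replication genes and 14101 bp for mitosis genes, against 17433 bp for all genes, and coverage is per length. The genes of a class share their libraries and are not replicates, so no p is given for these gaps.

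H3K27ac over the body plus 5 kb upstream was higher in cKO at 9 members and lower at 12, close to evenly divided. The 9 were Mcm7, Mcm10, Gins2, Pcna, Pold1, Ccne1, Ccnb1, Cdc20 and Aurka. The 12 were Mcm3, Mcm6, Rfc5, Rrm1, Tyms, Tk1, Ccne2, Ccna2, Ccnb2, Cdk1, Bub1 and Mki67. Of all genes 10.1% were higher and 22.2% lower, and of the 12747 genes with an H3K27ac region in at least 1 library 17.4% were higher and 38.2% lower. The share of members that were higher (22.0%) lay above both backgrounds, and the share that were lower (29.3%) lay between them. Without WT replicate 1 or without cKO replicate 1 the number higher was 19, against 15.7% and 21.7% of all genes. Without WT replicate 2 or without cKO replicate 2 the number lower was 21 or 19, against 31.6% and 32.4%. The balance turned when each library was divided by its mean over all genes (3737 and 3093 bp in WT, 1932 and 2593 bp in cKO), with 22 members higher and 5 lower, against 21.6% and 13.4% of all genes.

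The windows differ in length from gene to gene, so H3K27ac base pairs are read within a gene, and any order of members below is in base pairs and not per length. Mki67 had 14786 and 10600 bp inside H3K27ac regions in WT and 7668 and 6207 bp in cKO, the least difference of means among members (-5756 bp). Cdk1 had 11370 and 8727 bp in WT and 3899 and 5467 bp in cKO. Mcm6 had 12437 and 12943 bp in WT and 6326 and 9055 bp in cKO. Tk1, a thymidine kinase of the salvage pathway, had 5667 and 4249 bp in WT and 0 and 2047 bp in cKO, but its whole body overlaps the gene model Gm20708, and Afmid also overlaps it. Mcm3 had 6984 and 4476 bp in WT and 1002 and 2804 bp in cKO, and Ccna2 had 5010 and 3472 bp against 1002 and 1740 bp. Of these 6 genes, Cdk1 alone stayed lower in cKO under each of the 5 other ways of measuring that were tried, and Mki67 and Mcm6 were no longer lower once libraries were scaled.

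The other 6 members with less H3K27ac in cKO had smaller differences of the means. Ccne2 had 6697 and 5618 bp in WT and 2080 and 5616 bp in cKO, so its groups were separated by 2 bp. Tyms had 2186 and 1785 bp in WT and 682 and 934 bp in cKO. Rrm1 had 6287 and 5287 bp against 4247 and 4186 bp. Rfc5 was the most even, with 2976 and 2953 bp in WT and 1853 and 1836 bp in cKO. Bub1 had 1924 and 2004 bp against 501 and 1871 bp, and Ccnb2 had 3143 and 2909 bp against 2567 and 2701 bp. For Bub1 and Ccnb2 the closest libraries of the 2 genotypes were nearly level.

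Among the members with more H3K27ac, Pcna had 3521 and 2246 bp in WT and 5138 and 4615 bp in cKO, the greatest difference of means (1993 bp). Mcm10, which helps to fire origins, had 3225 and 679 bp in WT and 3690 and 4196 bp in cKO. Mcm7 had 501 and 953 bp against 2303 and 3108 bp. Pold1, the catalytic subunit of DNA polymerase delta, had no region in WT and 1369 and 1548 bp in cKO, and Gins2 likewise had none in WT and 501 and 768 bp in cKO. Ccne1 had 0 and 68 bp in WT and 766 and 848 bp in cKO. A list holds regions of 501 bp at the least in the H3K27ac libraries, so the Gins2 value in cKO replicate 1 is a single region of the narrowest kind. In mitosis, Aurka had 2129 and 2684 bp against 3178 and 4898 bp, Ccnb1 had 2669 and 2570 bp against 3667 and 3274 bp, and Cdc20, an activator of the anaphase-promoting complex, had 0 and 659 bp against 1262 and 1521 bp. Gins1, with the most base pairs in WT, had 17656 and 16152 bp there, and 16271 and 16216 bp in cKO. Kif11 held 11082 and 9636 bp in WT and 8987 and 10291 bp in cKO. Gins1 and Kif11 thus overlapped between genotypes in H3K27ac while their H3K36me3 did not.

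Around the start site the picture was more uniform. In a window of 1 kb on each side, of the same length for every gene, 22 members were higher in cKO (53.7%) and 3 lower (7.32%). Of all genes 18.0% were higher and 5.67% lower. Every member had a region in this window in at least 1 library, and of all genes with one 40.5% were higher and 12.7% lower. The share of mitosis genes that were higher lay below that 40.5%. The 22 comprised 15 of 24 replication genes (62.5%), 3 of 3 S-phase entry genes and 4 of 14 mitosis genes (28.6%). The window holds at most 2001 bp, so a gene at 2001 bp in a WT library could not be called higher. This applied to the mitosis genes Kif11, Ccnb2, Plk1, Bub1b and Aurkb and, of the replication genes, to Rfc4 alone. The class counts are therefore not on equal terms. An H3K27ac region reached this window in 30 members in each WT library, in 34 in cKO replicate 1 and in 41 in cKO replicate 2. The mean covered length over the members was 804 and 699 bp in WT and 1084 and 1524 bp in cKO, beside 346 and 320 bp in WT and 405 and 551 bp in cKO over all genes. The median difference of means was 577 bp over members and 280 bp over the 9757 genes with a region in this window.

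Several replication genes had little or no H3K27ac at the start in WT and longer covered stretches there in cKO. Mcm5 had no H3K27ac within 1 kb of its start in WT and 1757 and 1781 bp in cKO, while over its body plus 5 kb the groups overlapped. Mcm7 likewise had none in WT and 1088 and 1888 bp in cKO, and Cdc6 had none in WT and 501 and 996 bp in cKO. Mcm6 had 303 and 1231 bp in WT, and the window was covered throughout in both cKO libraries (2001 bp each), although its body plus upstream window held less H3K27ac in cKO. Pcna and Orc6 were likewise covered throughout in cKO, from 899 and 739 bp and from 908 and 501 bp in WT. Ccne1 and Ccne2 both had more, with 0 and 0 bp in WT and 756 and 824 bp in cKO for Ccne1, and 296 and 363 bp against 821 and 1095 bp for Ccne2. Orc1, Cdt1, Cdc45, Rfc3, E2f1 and Birc5 were also higher at the start and are named after their values were seen. The remaining members that were higher there were Mcm10, Gins1, Gins2, Rfc5, Pold1, Ccnb1, Cdc20 and Aurka.

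Mitosis genes with the broadest H3K27ac at the start had it in WT already. Kif11 was covered throughout in all 4 libraries, and Ccnb2 had 1855 and 2001 bp in WT and 2001 bp in both cKO libraries. Of the 14 mitosis genes 13 and 12 had a region in this window in WT, against 15 and 16 of the 24 replication genes. The exceptions in the other direction were Top2a, with 970 and 804 bp in WT and 149 and 406 bp in cKO, Cdk1, with 1684 and 1656 bp against 1107 and 1453 bp, and Tyms, with 1385 and 1441 bp against 682 and 739 bp. Top2a, Cdk1 and Tyms thus had less H3K27ac at the start in both cKO libraries and more H3K36me3 over the body.

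**Figure D3:**
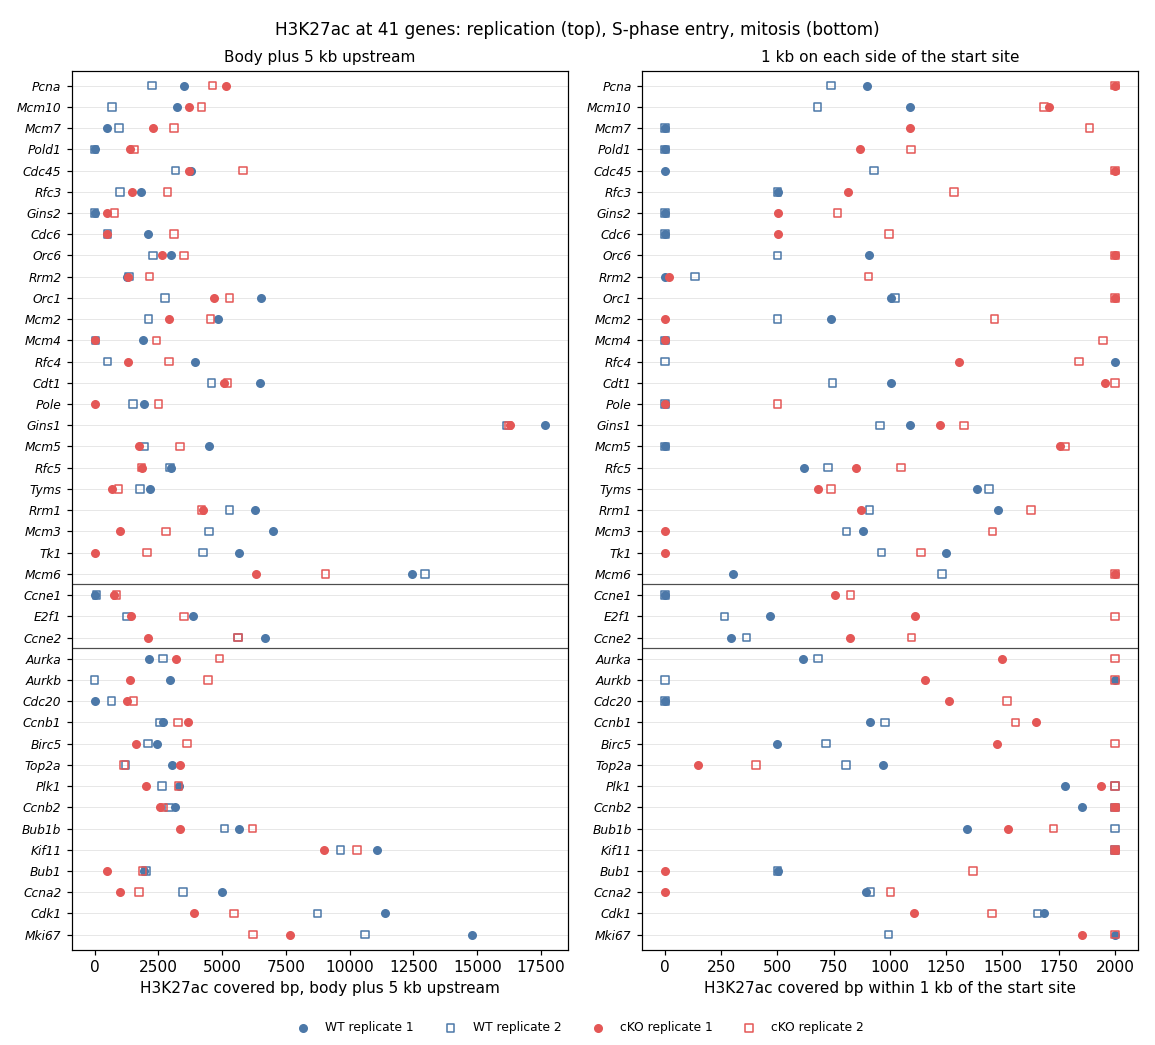
H3K27ac covered base pairs in the body plus 5 kb upstream (left) and within 1 kb of the start site (right, at most 2001 bp) for the 41 genes, WT in blue and cKO in red, replicate 1 as filled circles and replicate 2 as open squares, in the same gene order in both panels. On the left 9 genes have both red points to the right of both blue points and 12 to the left, and on the right these numbers are 22 and 3.

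**Figure D4:**
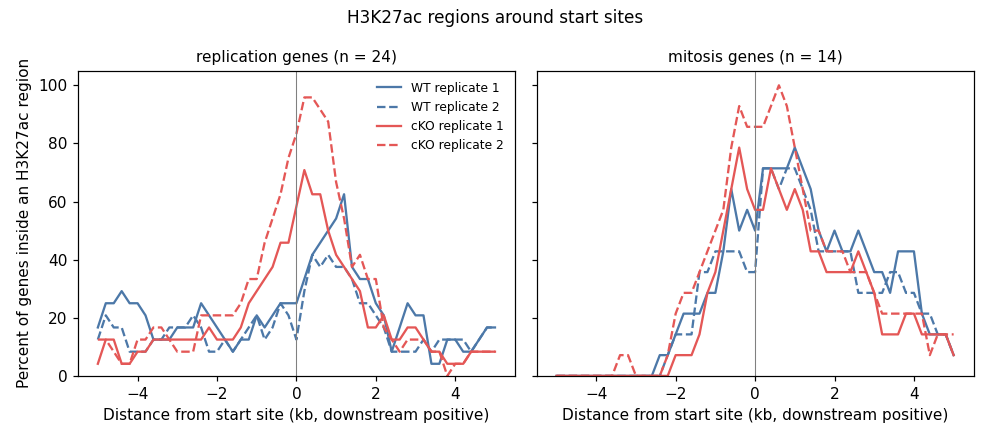
Percent of genes that lie inside an H3K27ac region (vertical axis) at each distance from the start site (horizontal axis, kb), for replication genes (left, n = 24) and mitosis genes (right, n = 14), 1 line per library. At the start of replication genes both cKO lines (red) stand above both WT lines (blue), and the number of replication genes with a region within 1 kb was 15 and 16 in WT and 19 and 24 in cKO.

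By class, the mean H3K27ac length in the body plus 5 kb, in base pairs and not per length, was smaller for replication than for mitosis genes in every library, and the gap was smaller in cKO. Mean covered length was 4312 and 3059 bp over replication genes and 4962 and 3878 bp over mitosis genes in WT, and 2864 and 3957 bp and 3175 and 4046 bp in cKO. The gap between the classes was -650 and -818 bp in WT and -312 and -89.6 bp in cKO, a difference of 533 bp between the mean gaps. The medians were 3373 and 2020 bp over replication genes and 3082 and 2658 bp over mitosis genes in WT, so that in WT replicate 1 their order was the opposite of the means. In cKO they were 1805 and 3112 bp against 2872 and 3452 bp. The difference between the mean gaps kept its sign in each alternative that was run.

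The calls in H3K36me3 and in H3K27ac over the body window were set side by side for each member. Ccnb1 alone was higher in both marks and Rfc5 alone was lower in both. H3K36me3 was higher and H3K27ac lower over the body window at Tyms, Ccne2, Cdk1 and Mki67. Pcna showed the reverse. At 12 members, among them Mcm2 and Mcm4, the libraries of the genotypes overlapped in both marks. Shares of all genes with the same pairs of calls were not computed. Whether these joint counts differ from those of other genes was therefore not tested.

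H3.3-HA regions were found in both replicates at 28 of the 41 members, 16 replication genes, 2 S-phase entry genes and 10 mitosis genes, against 44.1% of all genes. The mean covered length over members was not greater, at 1952 and 2257 bp against 2089 and 2450 bp over all genes. It was 3688 and 4327 bp over the 12409 genes with a region in at least 1 replicate. Medians were 1322 and 1290 bp over members, 0 and 501 bp over all genes and 1698 and 2247 bp over genes with a region. H3.3-HA was not profiled in cKO cells. Mki67 held the most, with 10964 and 12326 bp of its body plus 5 kb inside H3.3-HA regions, spread over 6 regions in each replicate. Tk1 followed with 5799 and 9147 bp, in a window it shares with the overlapping gene models. Cdc6 had 3736 and 8067 bp, Top2a 4685 and 5242 bp, and Rfc4 4863 and 4270 bp. At Cdc6 the replicates stood far apart, whereas at Top2a and Rfc4 they were close. The H3.3-HA regions at Rfc4 reached beyond its window, the widest being 9015 bp in replicate 1 and 9518 bp in replicate 2. Rfc4 overlaps Eif4a2 by 194 bp, so these regions are not of Rfc4 alone. Pcna had 1482 and 1182 bp, Cdk1 1272 and 1825 bp and Mcm2 367 and 382 bp. Rfc3 and Pole had no region in either replicate. Within 1 kb of the start, 9 members in replicate 1 and 24 in replicate 2 had a region, and 9 had one in both replicates, against 13.3% of all genes.

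**Figure D5:**
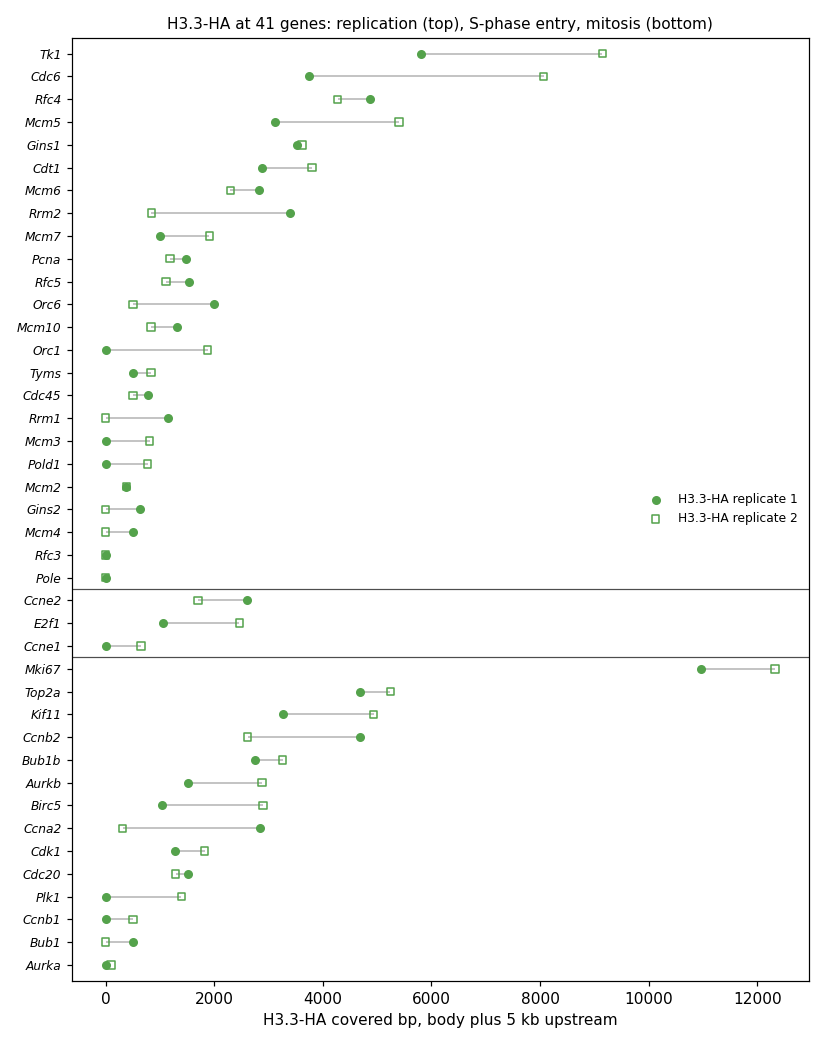
H3.3-HA covered base pairs in the body plus 5 kb upstream (horizontal axis) for the 41 genes, replicate 1 as filled circles and replicate 2 as open squares, joined by a grey line that spans the replicates. Mki67 lies farthest right at 10964 and 12326 bp, and Rfc3 and Pole lie at 0.

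The genes highest in H3.3-HA fell on both sides in H3K36me3. Mki67, Top2a and Cdc6 had more H3K36me3 in both cKO libraries, Rfc4 had less, and Tk1 overlapped (58.2% and 63.9% in WT, 40.5% and 81.2% in cKO). Ccnb1, which had the greatest difference in H3K36me3, had no H3.3-HA region in replicate 1 and 501 bp in replicate 2.

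Other genes of the same pathways were read by the same rules. Of 49 further mitosis genes, H3K36me3 was higher in cKO at 13 and lower at 0, against 4.13% and 19.5% of all genes, with a median difference of 12.2 percentage points. Examples were Tpx2, a spindle assembly factor (31.6% and 42.4% in WT, 56.0% and 84.2% in cKO), Kif2c, which depolymerizes microtubules (38.6% and 38.8% against 55.9% and 87.3%), Dlgap5 (34.5% and 38.7% against 47.2% and 84.6%) and the kinase gene Nek2 (10.7% and 9.79% against 19.1% and 59.9%). Of 44 further replication genes, 2 were higher and 10 lower, with a median of 1.74 points. These are shares of 4.55% and 22.7%, close to the 4.13% and 19.5% of all genes. Prim1, the catalytic subunit of primase, had 0% and 1.51% in WT and 12.3% and 42.9% in cKO. Rfc2, another clamp loader subunit, had 53.0% and 58.3% against 14.1% and 34.1%, and Gins4 had 69.7% and 76.8% against 33.0% and 59.9%. Thus Rfc2, Rfc4 and Rfc5 had less H3K36me3 in both cKO libraries, whereas the libraries overlapped for Rfc3 and for Rfc1, the large subunit of the loader (47.0% and 58.0% in WT, 31.7% and 62.3% in cKO). Lower calls were made at 38.4% of all genes with a region.

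Of 26 cell cycle control genes, H3K36me3 was higher at 8 and lower at 1, read against the same background. Ccnd2, cyclin D2, had no region in WT and 9.22% and 46.8% in cKO. E2f2, an activating E2F, had 10.8% and 7.64% against 21.7% and 44.0%. The tumour suppressor Rb1, which restrains E2F, was the gene that was lower, with 51.5% and 51.6% against 16.9% and 45.4%. The inhibitors of cyclin-dependent kinases Cdkn1a and Cdkn1b were both higher. Cdkn1a (p21) had 49.2% and 44.5% in WT and 52.7% and 55.6% in cKO, and Cdkn1b (p27) had 33.5% and 35.9% against 52.2% and 63.9%. Both inhibitors also had more H3K27ac over the body window. Cdkn1a had 2828 and 4292 bp in WT and 5013 and 5370 bp in cKO. Cdkn1b had 5966 and 3410 bp against 6047 and 6382 bp. Within 1 kb of the start, Cdkn1a was instead lower, with 1569 and 1554 bp in WT and 1208 and 1403 bp in cKO. The libraries overlapped there for Cdkn1b (1493 and 1109 bp against 1434 and 1580 bp).

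H3K27ac over the body window was lower more often than higher in all 3 lists, as it was over all genes (22.2% lower and 10.1% higher, or 38.2% and 17.4% of genes with a region). The counts were 7 higher and 14 lower of 44 replication genes, 7 and 22 of 49 mitosis genes, and 5 and 8 of 26 control genes. Orc5 had 22742 and 20735 bp in WT and 6246 and 5878 bp in cKO, and Prim2 had 19220 and 18348 bp against 3742 and 5179 bp. Smc2, of the condensin complexes that compact mitotic chromosomes, had 20438 and 12565 bp against 5093 and 2399 bp. Skp2, which targets p27 for destruction, had 26619 and 23531 bp against 9947 and 11150 bp. At the start site the order was again reversed, with 16 higher and 2 lower, 21 and 4, and 10 and 2 in the 3 lists. The same held over all genes, at 18.0% higher and 5.67% lower.

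Cell type markers were read in the same libraries. Of 10 macrophage markers, 8 in each WT library and 9 in each cKO library had an H3K36me3 region, and 9 or 10 had an H3K27ac region. All 10 had a region of each mark in at least 1 library. H3K36me3 was higher in cKO at 4 of the 10 and lower at 1, against 4.13% and 19.5% of all genes. Of genes with an H3K36me3 region, 8.12% were higher and 38.4% lower. Csf1r, the CSF-1 receptor, was among the higher, with 57.6% and 67.5% in WT and 75.4% and 79.4% in cKO. Cd14 was the lower, with 38.0% and 24.5% in WT and 0% in both cKO libraries. H3K27ac over the body window was higher at 1 of the 10 and lower at 4 (Adgre1, Itgam, Lyz2 and Mertk). The background was 10.1% and 22.2% of all genes, and 17.4% and 38.2% of genes with an H3K27ac region. Lyz2 was also among the 4 that were higher in H3K36me3. It carries the Cre in cKO cells only, so the altered locus and the loss of H3.3 cannot be told apart at Lyz2. Of 10 markers of granulocytes and myeloid progenitors, 0 or 1 had an H3K36me3 region in each library, and Mpo, Elane, Kit and Cd34 had none in any. H3K27ac regions were present at 5 of these markers in each WT library and at 8 in each cKO library, with summed lengths of 8162 and 6163 bp in WT and 8313 and 15776 bp in cKO. The part of such cells in the values of the 41 genes was not tested. No T cell, B cell or stromal marker had an H3K36me3 region. H3K27ac regions were absent from all 4 libraries at 3 of 4 T cell, 2 of 4 B cell and 3 of 4 stromal markers. Summed H3K27ac lengths were 0 and 161 bp in WT and 0 and 0 bp in cKO over T cell markers. Over B cell markers they were 766 and 980 bp in WT and 0 and 2628 bp in cKO. Over stromal markers they were 501 and 0 bp in WT and 501 and 1002 bp in cKO.

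Neighbouring genes entered some windows. The bodies of 30 members overlapped no other protein-coding gene, and among these H3K36me3 was higher at 10 and lower at 1 (Pcna), so that Rfc4, which overlaps Eif4a2 by 194 bp, and Rfc5, which overlaps Wsb2 by 499 bp, were the others. Ccne2 shares 5622 bp with Ints8. Of the 31 members without another gene's start in the body plus 5 kb, H3K27ac was higher at 7 and lower at 11. Over all genes, whatever their neighbours, H3K36me3 was higher at 4.13% and lower at 19.5%, and H3K27ac at 10.1% and 22.2%. Shares over genes filtered in the same way were not computed. Some members that were higher in H3K27ac at the start site had another gene's start in the body plus 5 kb. They were Mcm7 (Ap4m1), Orc1 (Prpf38a), Orc6 (Vps35), Gins1 (Abhd12), Cdc45 (Ufd1) and Aurka (Cstf1). Orc6 overlaps Vps35 by 171 bp and Cdc45 overlaps Ufd1 by 209 bp. H3K27ac near these starts may belong to either gene.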

How the data were processed

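Paired-end reads of 25 bases were aligned by the authors to mm10 with Bowtie2, and enriched regions were called with HOMER in each library alone against an IgG control. The deposited lists hold the coordinates of each region, and their score column is constant, so region heights were not available. Per the file headers, peaks of 500 bp needed 4-fold enrichment over the control. The 5 IgG samples were not analysed here. Bodies of 21911 GENCODE M21 genes were intersected with merged regions of each library (Python 3.11.15, numpy 2.4.6, pandas 2.3.3), after the code was tested on simulated data. H3K36me3 was the percent of the body covered, and H3K27ac and H3.3-HA the base pairs covered in the body plus 5 kb upstream. Values were compared for every gene between 2 WT and 2 cKO libraries. Members, pathway lists and markers were chosen with earlier results of these data known. Named with values are members whose groups did not overlap, the 5 greatest and 5 least differences and 5 highest WT means of each mark, the 5 highest in H3.3-HA, and Pcna, Mcm2, Mki67, Top2a and Cdk1, plus up to 4 genes per pathway list with Cdkn1a and Cdkn1b. Alternatives were a minimum region width of 1000 bp, equal total length, scaling, other windows and leaving out each library.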

Additional observations from a re-analysis of the deposited data

How the results depend on the processing

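Of 70 recomputed values over 7 main results, 24 moved, a count by more than 1.5 times or a class difference by more than 1 SD between replicates. The balance of H3K36me3 calls turned from 12 higher and 3 lower to 12 and 23 without cKO replicate 2, and that of H3K27ac from 9 and 12 to 22 and 5 with scaling. Both class differences kept their sign. H3K36me3 higher (12 members) gave 26 with scaling to the library mean (10.6% of all genes) and 12 to 36 with a library left out, and lower (3) gave 1 with equal total length (7.26%), 1 with scaling (17.8%) and 3 to 23 with a library left out. H3K27ac higher (9) gave 16 with equal total length (18.8%), 22 at the start site (18.0%), 22 with scaling (21.6%) and 10 to 19 with a library left out, and lower (12) gave 5 (8.50%), 3 (5.67%), 5 (13.4%) and 12 to 21. The class difference in H3K36me3 (-18.3 points) gave -27.6 with equal total length and -26.8 to -9.83 with a library left out. In H3K27ac (533 bp) it gave 1092 with regions of at least 1 kb, 930 with equal total length, 362 at the start site, 344 with scaling and 422 to 644 with a library left out. H3.3-HA in both replicates (28) gave 16 with regions of at least 1 kb (25.4%) and 9 at the start site (13.3%). Under the alternatives that measured coverage in another way (4 for H3K36me3, 5 for H3K27ac), Mcm5, Ccne2, Cdk1, Mki67, Top2a and Kif11 stayed higher in H3K36me3, Mcm7, Mcm10, Pcna, Ccnb1, Cdc20 and Aurka higher in H3K27ac, and Cdk1 lower in H3K27ac. With a minimum difference of 10 points, H3K36me3 was higher at 11 members, without Ccne2 (9.87 points), against 2.60% of all genes. The causes were not tested.

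Nothing states that libraries with the same replicate number share a source, and their deviations from group means correlated at 0.0762 for H3K36me3 and -0.385 for H3K27ac over genes. With a replicate block, 18 members were higher and 5 lower in H3K36me3 (5.49% and 24.4% of all genes), and 10 and 12 in H3K27ac (11.5% and 23.7%). Crossed numbers, added after seeing the data, gave 13 higher and 15 lower in H3K27ac (12.9% and 26.5%).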
